A study of Mus musculus with 2 samples.

Results

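Efnb1, Strc, Nipal3, Polrmt and Pld1 are 5 protein-coding mouse genes chosen by the fold enrichment of the H3K9me3 region at or beside a transcript start. H3K9me3 is the trimethylation of lysine 9 of histone H3, mapped here in an embryonic stem cell line. The 5 genes were drawn from 22367 protein-coding genes of the GENCODE M1 annotation on mm9, of which 1239 had a marked promoter. A promoter was called marked where a region present in both replicates overlapped the 1 kb on either side of any transcript start. Strength was the fold enrichment of the strongest such region, a linear ratio that the authors gave to each region and averaged here over the replicates. They stood at ranks 1, 2, 6, 7 and 9 of the 1239. Their strength was therefore the reason for their choice, and it is described here without a test.

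The mark was mapped by ChIP-seq in E14TG2a.4, a male mouse embryonic stem cell line of strain 129/Ola, labelled as embryonic and of day 3.5. The samples form 1 group of 2 biological replicates, each with its own biosample, and both carry no treatment in the labels. All cells come from 1 line, and no library of another condition or of input DNA was analysed here. Regions and peaks are placed on reference genomes of strain C57BL/6J, so an insertion present in only one of these strains would not be seen as such.

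H3K9me3 is laid down by histone methyltransferases such as SETDB1 and the SUV39H enzymes and is bound by HP1 proteins in compact, silent chromatin. In embryonic stem cells, KRAB zinc finger proteins recruit TRIM28 and SETDB1 to endogenous retroviruses, including intracisternal A particle elements, and to imprinting control regions. A gene can also carry the mark within its body, away from the start that gives its protein-coding mRNA.

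The lists differed in size. On mm9, replicate 1 had 43006 regions over 222.0 Mb, replicate 2 had 53405 over 256.1 Mb, and the third list, one of the whole series, had 56116 over 274.7 Mb. On mm10, where the authors listed narrower peaks, replicates 1 and 2 had 161565 and 198948 peaks, the pooled list 203763 and the replicated list 123489. Read depth is unknown, because the files are lists of regions without counts. The promoters of 0 of 10 stem cell markers, such as Pou5f1 and Nanog, and of 2 of 10 fibroblast markers, Lum and S100a4, were marked, where 5.54% of all protein-coding genes were. A promoter free of the mark does not show that its gene was expressed.

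Across the 5 genes the marked start was rarely the start of the protein-coding mRNA. Each of the 5 had at least 1 marked transcript start, which is the rule that chose them, against 5.54% of all protein-coding genes. Counting only transcripts annotated as protein coding, 1 of the 5, Polrmt, had a marked start, and the share over all protein-coding genes was 4.67%. At the other four genes every marked start belonged to a processed transcript or a retained intron. Such marking at other transcripts alone was found in 194 of the 1239 marked genes, or 15.7%. By transcript, 2.25% of the 26538 other transcripts of protein-coding genes and 3.10% of the 51710 protein-coding transcripts had a marked start. The map of mm9 regions shows the distance between each strong region and the coding starts.

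**Figure D1:**
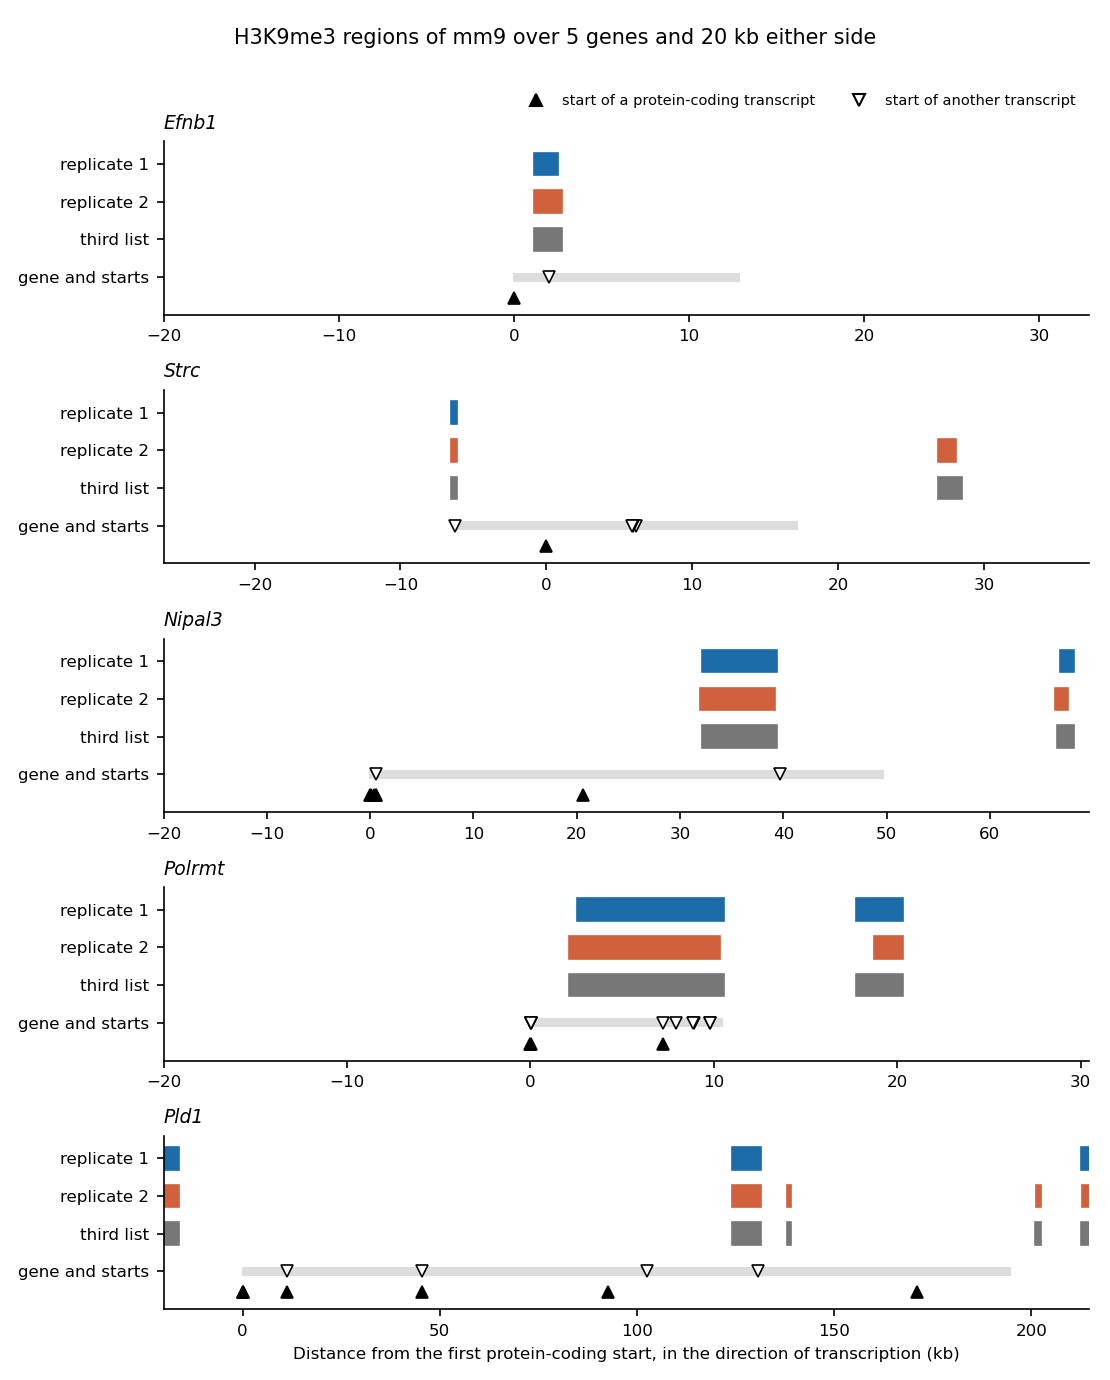
H3K9me3 regions of replicate 1, replicate 2 and the third mm9 list (coloured bars) over each gene (grey bar) with 20 kb on either side. The x axis is the distance in kb from the first protein-coding start in the direction of transcription; filled triangles are starts of protein-coding transcripts and open triangles starts of other transcripts. In Efnb1 the region begins 1132 bp into the gene, in Strc it lies 6125 bp before the coding start, and in Nipal3 and Pld1 it lies far inside the body. Colours tell the lists apart and do not show strength.

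Efnb1 encodes ephrin-B1, a membrane-bound ligand of Eph receptors that acts in cell sorting and boundary formation. The gene lies on the + strand of the X chromosome (mm9, chrX:96331469-96344330, 12.9 kb), which a male line carries as a single copy. The strongest region at Efnb1 had a fold enrichment of 14.2 in replicate 1 and 20.8 in replicate 2, with a mean of 17.5 ± 4.72 (SD, n = 2). These were the highest values among the 1239 marked promoters in each replicate, and the third list gave 16.7. Across the marked promoters the median fold enrichment was 3.27 in replicate 1 and 4.23 in replicate 2.

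Despite its strength the Efnb1 region was narrow, with 1400 bp in replicate 1 and with 1600 bp in replicate 2, where the median over marked promoters was 5000 bp and 4800 bp. It began at chrX:96332601 in both lists. The start of Efnb1-002, a processed transcript, lay inside it at position 96333470. The coding start, that of Efnb1-001, lay 1132 bp outside its edge, just past the 1 kb limit. The region was 86.1% intronic in replicate 1 and 87.9% in replicate 2, and touched 1 of the 6 exon blocks. It covered 10.9% and 12.4% of the body in replicates 1 and 2, and both flanks of 20 kb held no mm9 region and no other annotated gene.

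The 300 bases around the Efnb1 starts differed in their CpG content, which is why both are shown, with CG dinucleotides in capitals. The window of Efnb1-002 (mm9, chrX:96333220-96333519, + strand) runs from 250 bases before its start to 50 from it on and held 3 CpGs. The window of the RefSeq start (GRCm38.p6, chrX:99135811-99136110, + strand), that of the protein-coding mRNA, held 14. Over 32851 RefSeq start windows of the same length the median was 7 CpGs, with quartiles of 3 and 20.
Efnb1-002: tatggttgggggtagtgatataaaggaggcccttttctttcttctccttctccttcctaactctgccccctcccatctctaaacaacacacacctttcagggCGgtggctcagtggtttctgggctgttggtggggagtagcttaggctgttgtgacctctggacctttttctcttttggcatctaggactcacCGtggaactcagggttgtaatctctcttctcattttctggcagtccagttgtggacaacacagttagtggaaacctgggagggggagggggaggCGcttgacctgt
Efnb1 RefSeq start: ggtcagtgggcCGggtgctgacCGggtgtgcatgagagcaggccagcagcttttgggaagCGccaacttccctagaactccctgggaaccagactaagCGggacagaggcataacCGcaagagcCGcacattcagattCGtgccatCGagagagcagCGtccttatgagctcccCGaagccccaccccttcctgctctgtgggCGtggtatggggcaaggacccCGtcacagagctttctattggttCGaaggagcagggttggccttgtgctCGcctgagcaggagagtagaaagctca
The marked window thus had as few CpGs as the lower quartile of RefSeq windows, and the unmarked coding start had more than their median.

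Polrmt encodes the mitochondrial RNA polymerase, which transcribes the mitochondrial genome and makes primers for its replication. It lies on the - strand (mm9, chr10:79198868-79209326, 10.5 kb). The strongest region had a fold enrichment of 10.5 in replicate 1 and 13.7 in replicate 2, with a mean of 12.1 ± 2.28 (SD, n = 2), and the third list gave 11.2. Its width was 8000 bp in replicate 1, 8200 bp in replicate 2 and 8400 bp in the third list. The region thus filled most of the gene, covering 75.8% of the body in replicate 1 and 78.4% in replicate 2.

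Polrmt was marked from at or near its 3′ end up to, but not including, its 5′ end. The 3′ end lies at position 79198868, and the region began at 79198801 in replicate 1 and at 79199001 in replicate 2. Of its 13 transcripts 7 had marked starts, all inside the region, and 6 of these are retained introns or a processed transcript. The seventh, Polrmt-009, is annotated as protein coding and starts within the gene at position 79202119. The other 6 transcripts start together at the 5′ end, and these starts lay between 2516 and 2526 bp from the region in replicate 1 and between 2116 and 2126 bp in replicate 2. A weaker region beyond the 3′ end had a fold enrichment of 2.55 in replicate 1 and 3.29 in replicate 2. Exons made up 55.9% of the region in replicate 1 and 52.9% in replicate 2, and 13 of the 15 exon blocks were touched. No transcript start of the neighbours within 20 kb, Hcn2, Fgf22 and Rnf126, was marked, although the region reached the 3′ end of Hcn2 in replicate 1.

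Polrmt-009, the marked protein-coding start, had a CpG-rich window, as had the unmarked 5′ start, and both are shown for comparison. The windows of the marked starts of Polrmt-006, Polrmt-008, Polrmt-010, Polrmt-011 and Polrmt-013 held fewer, between 8 and 12 CpGs, and that of Polrmt-012 overlaps the one of Polrmt-009. The window of Polrmt-009 (mm9, chr10:79202070-79202369, - strand) held 23 CpGs, and that of the RefSeq start (GRCm38.p6, chr10:79746532-79746831, - strand) held 21. Both counts are above the upper quartile of 20 over all RefSeq start windows.
Polrmt-009: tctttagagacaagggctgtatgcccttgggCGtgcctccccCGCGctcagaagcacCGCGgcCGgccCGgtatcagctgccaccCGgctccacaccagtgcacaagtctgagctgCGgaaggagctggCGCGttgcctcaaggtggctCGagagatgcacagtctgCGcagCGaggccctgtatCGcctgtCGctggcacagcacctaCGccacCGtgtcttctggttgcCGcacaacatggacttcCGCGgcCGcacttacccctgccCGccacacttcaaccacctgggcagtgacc
Polrmt RefSeq start: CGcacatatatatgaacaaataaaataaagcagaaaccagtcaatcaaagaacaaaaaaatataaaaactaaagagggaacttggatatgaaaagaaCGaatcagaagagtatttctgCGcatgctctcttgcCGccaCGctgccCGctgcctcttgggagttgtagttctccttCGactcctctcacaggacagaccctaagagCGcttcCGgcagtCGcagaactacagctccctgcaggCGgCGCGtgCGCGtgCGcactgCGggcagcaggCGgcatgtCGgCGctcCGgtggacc

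Strc encodes stereocilin, an extracellular protein of the inner ear that links the stereocilia of outer hair cells and attaches them to the tectorial membrane. The gene lies on the - strand (mm9, chr2:121189464-121212904, 23.4 kb). The strongest region had a fold enrichment of 11.4 in replicate 1 and 18.2 in replicate 2, with a mean of 14.8 ± 4.80 (SD, n = 2), and 13.8 in the third list. Its boundaries were the same in all 3 lists, chr2:121212801-121213200, a width of 400 bp. Boundaries in the mm9 lists fall on multiples of 200 bp, so such agreement between lists is no finer than that step. No region of any marked promoter was narrower, since 400 bp was also the lowest value over all 1239 in both replicates.

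The Strc region sat on the 5′ edge of the annotated gene, with 26% of it in an exon and 74% outside the gene. The marked start was that of Strc-002, a retained intron, at position 121212904. The coding start, of Strc-001, lay 6125 bp away in both replicates, and the remaining 3 transcripts start farther downstream. The region covered 0.444% of the body. No start of the neighbours Ppip5k1, Ckmt1 and Catsper2, or of the pseudogenes Gm14000 and Gm14001, was marked. A weaker region in the flank beyond the 3′ end, with a fold enrichment of 3.80, was listed in replicate 2 and not in replicate 1.

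Nipal3 encodes a membrane protein of the NIPA family, whose relatives transport magnesium. It lies on the - strand (mm9, chr4:135001335-135050953, 49.6 kb). The strongest region had a fold enrichment of 10.0 in replicate 1 and 15.0 in replicate 2, with a mean of 12.5 ± 3.48 (SD, n = 2), and 11.8 in the third list. It was 7200 bp wide in each replicate, at chr4:135011601-135018800 in replicate 1 and 200 bp farther along in replicate 2. The whole region was intronic.

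At Nipal3 no start base lay inside the region. The marked start, of the processed transcript Nipal3-007, was 351 bp from the region in replicate 1 and 551 bp from it in replicate 2. The nearest protein-coding start, of Nipal3-006, was 11569 bp away in replicate 1 and 11369 bp away in replicate 2. The 5′-most one was 32153 bp away in replicate 1 and 31953 bp in replicate 2. The region covered 14.5% of the body in each replicate. A second region, in the flank beyond the 3′ end, had a fold enrichment of 3.25 in replicate 1 and 3.24 in replicate 2. No start of the neighbours Rcan3, Gm15979, 4930555I21Rik or AL670720.1 was marked.

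Pld1 encodes phospholipase D1, which hydrolyses phosphatidylcholine to phosphatidic acid and choline in signalling and vesicle traffic. It is the longest of the 5 genes and lies on the + strand (mm9, chr3:27837602-28032284, 194.7 kb). The strongest region had a fold enrichment of 9.21 in replicate 1 and 14.3 in replicate 2, with a mean of 11.8 ± 3.63 (SD, n = 2). All 3 lists placed it at chr3:27961601-27969000, a width of 7400 bp. Introns made up 92.4% of it and exons 7.64%, and it touched 1 of 35 exon blocks.

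The marked start at Pld1 was that of Pld1-006, a retained intron, at position 27968436 inside the region. The first coding start was 123999 bp from the region, and the nearest, of Pld1-003, was 31417 bp from it. Coverage of the body was 3.80% in replicate 1 and 4.31% in replicate 2. Both flanks held regions too, covering 15.2% of their length in replicate 1 and 18.2% in replicate 2, and the strongest of these other regions had a fold enrichment of 4.41 in replicate 1 and 4.82 in replicate 2. No other annotated gene lay within 20 kb.

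**Figure D2:**
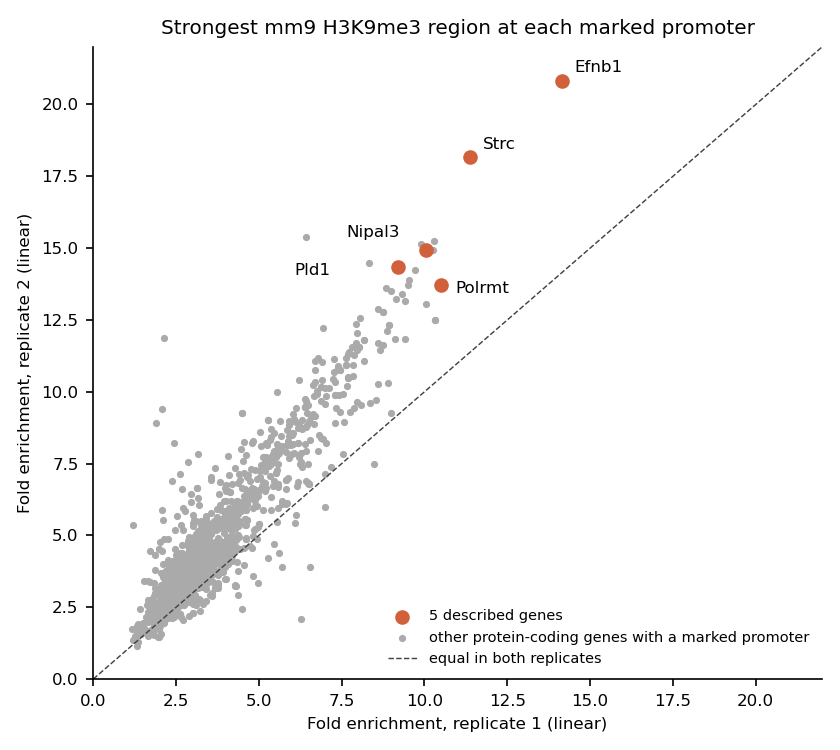
Fold enrichment (linear) of the strongest mm9 region at each of 1239 marked promoters, replicate 1 on the x axis and replicate 2 on the y axis, with the 5 genes in orange, the other genes in grey and a dashed line where both replicates are equal. Efnb1 and Strc have the highest values in both replicates, 14.2 and 11.4 in replicate 1, and Polrmt follows at 10.5 there.

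All 5 genes had the higher fold enrichment in replicate 2. The ratio of replicate 2 to replicate 1 was 1.47 for Efnb1, 1.60 for Strc, 1.49 for Nipal3, 1.31 for Polrmt and 1.56 for Pld1. Replicate 2 was also higher at 1113 of the 1239 marked promoters, or 89.8%, with a median ratio of 1.31. An offset in this direction thus ran through the lists as a whole, and its size differed between promoters. Polrmt stood at the median ratio, while Efnb1, Strc, Nipal3 and Pld1 lay above the upper quartile of 1.45. The genes were chosen by these fold enrichments, and the difference in ratio was not tested. In the plot of fold enrichments Efnb1 and Strc had the highest 2 values in each replicate. Efnb1 was higher than Strc in each replicate. Strc, with a mean of 14.8 ± 4.80, was higher in each replicate than the next gene in the order, Gm7735 at 12.8 ± 3.50. Nipal3, 12.5 ± 3.48, was higher in each replicate than Pld1, 11.8 ± 3.63. Against Polrmt, 12.1 ± 2.28, Nipal3 was lower in replicate 1 and higher in replicate 2. In each of these pairs the means differed by less than the spread between replicates. That spread holds the offset of the lists, so it does not measure how firm the order is, and the order was not tested.

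The genes just inside and just outside the 10 strongest were Zfp385c, with 9.53 in replicate 1 and 13.9 in replicate 2, and Cdk5rap1, with 9.50 and 13.7. Between the 5 genes in the order stood predicted genes such as Gm7735 at rank 3, Gm10061 at rank 5 and Gm17558 at rank 8. By distance between the pairs of replicate values over 1238 other marked genes, Gm17579 was nearest to Nipal3 (0.217) and Gm17558 nearest to Pld1 (0.511). Their regions were 7200 bp wide for Gm17579 and 7400 bp for Gm17558 in both replicates, the same widths as at Nipal3 and Pld1. Nearest to Polrmt was Ezr (0.796), whose region was wider, with 30800 bp in replicate 1 and with 27600 bp in replicate 2. The nearest to Strc was Gm7735 (3.12) and to Efnb1 was Strc (3.86), so these had no close match.

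The sequences under the 5 regions fell into different kinds. Sequence was not part of the rule that chose the genes, but whether it is independent of fold enrichment was not tested. Each 32-base word of a region was counted over the whole mm9 genome on both strands. At Efnb1 100% of the words occurred once in the genome, and at Polrmt 97.8% did. At Strc 27.4% occurred once, at Nipal3 3.69% and at Pld1 3.08%. Efnb1 and Polrmt thus lay in unique sequence, and the regions at Nipal3 and Pld1 almost wholly in repeated sequence.

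The median word occurred at 846 places for Nipal3, 887 for Pld1 and 106 for Strc, and at 1 place for Efnb1 and Polrmt. Over all genes, words were counted in the promoter windows, 1 kb on either side of every transcript start, and not in the marked regions. Repeated words made up a median of 7.68% of these windows in the 1239 marked genes and 2.58% in all 22367 genes. A repeated share of at least 90% was found in 8.23% of marked genes and 3.37% of all genes. The handling of reads with several matching places is a step not given in the sources used here. At Strc, Nipal3 and Pld1 the enrichment of the copy in the gene and that of its copies elsewhere cannot be told apart.

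**Figure D3:**
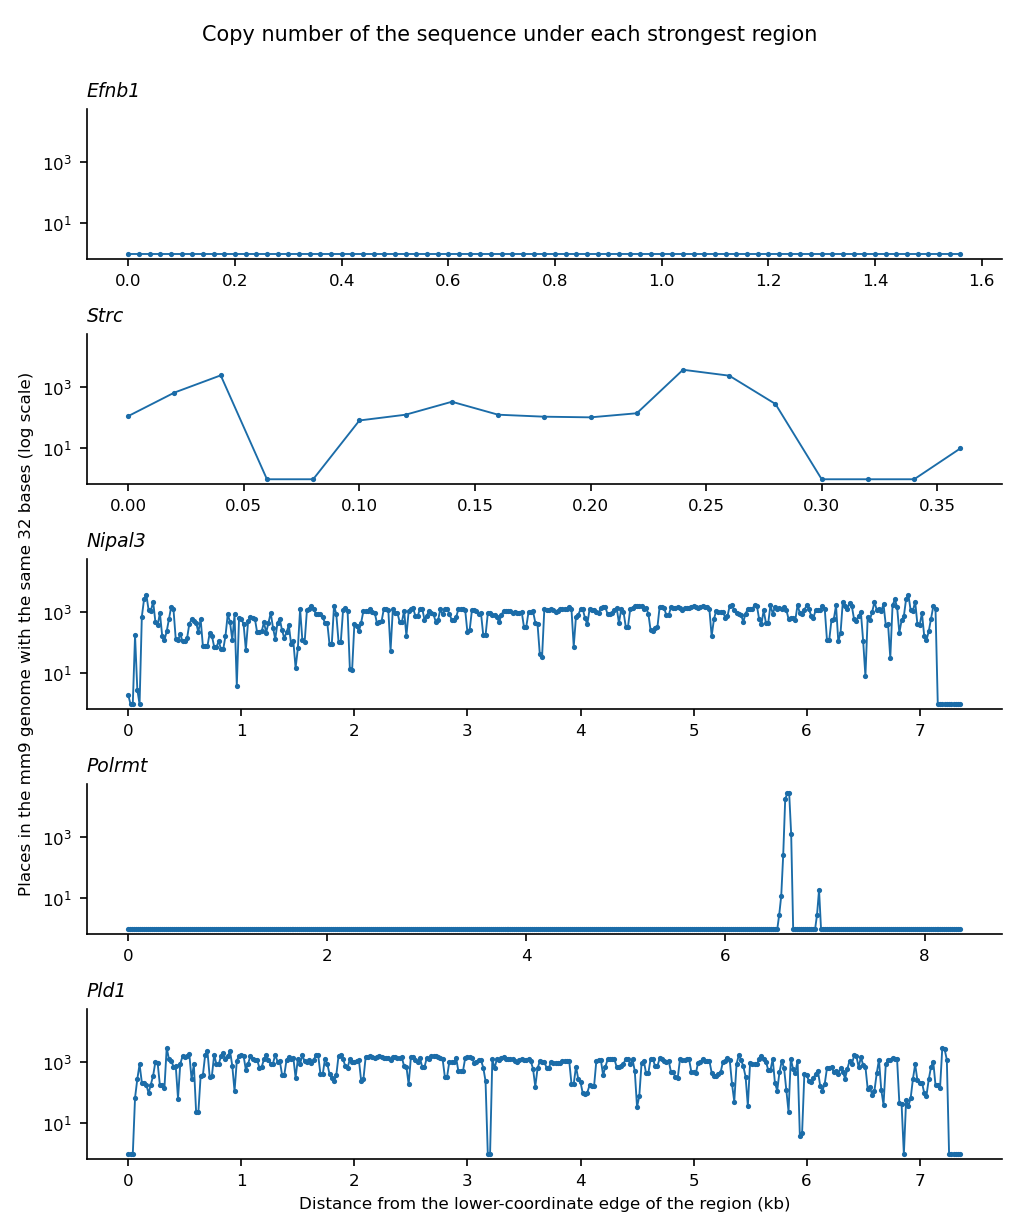
Number of places in mm9 (log y axis) that hold the same 32 bases, along the region joined over both replicates of each gene (x axis, distance in kb from the lower-coordinate edge). Efnb1 is at 1 throughout, Polrmt at 1 for 97.8% of its words with a short spike of up to 33488 places, and Nipal3 and Pld1 have medians of 846 and 887 along nearly the whole region.

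The regions at Nipal3 and Pld1 had the same build. Each held a pair of identical direct repeats, one near either edge. At Nipal3 the repeats were 337 bases long, at chr4:135011719-135012055 and chr4:135018456-135018792, with 337 of 337 bases identical. At Pld1 they were 364 bases long, at chr3:27961665-27962028 and chr3:27968529-27968892, with 364 of 364 identical. From the first base of one repeat to the last of the other the stretch measured 7074 bp at Nipal3 and 7228 bp at Pld1, so that it nearly filled regions of 7200 and 7400 bp.

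The bases directly outside each stretch were duplicated. The 6 bases before the first repeat of Nipal3, cacaac, also followed the second, and at Pld1 the 6 bases on either side were caggga. Paired terminal repeats within a short duplication of the target are the known layout of an inserted provirus, and identical pairs are known from young insertions. No repeat annotation was used here, so no repeat family was assigned to either stretch.

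Nipal3 and Pld1 also shared sequence with each other. Of their distinct 32-base words 3549 were common to both regions, 50.4% of those at Nipal3 and 50.7% of those at Pld1. The repeat of Pld1 aligned to that of Nipal3 on the opposite strand, with 81.3% identity over 359 columns. Read in the orientation of the Nipal3 repeat on the + strand, the stretch runs against the direction of transcription in both genes. Pld1-006 starts between the 2 repeats of its stretch, and Nipal3-007 starts outside its stretch.

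The narrow Strc region carried a relative of the same repeat. It aligned to the Nipal3 repeat from base 1 to base 328 of 337, with 87.1% identity over 333 columns, at chr2:121212801-121213129. The match ran to the lower edge of the region, and only the region was aligned. Whether more of the stretch lies beyond that edge was not examined. Direct repeats were sought within 1500 bp of a region, less than their separation of 6737 bp at Nipal3 and 6864 bp at Pld1. The strand was that of Strc, and the start of Strc-002 lay within the aligned bases. It shared 17 exact words with Nipal3 and 17 with Pld1, 4.61% of its own in each case. The best alignments of the Efnb1 and Polrmt regions to the repeat scored 19 and 26, against 239.5 for Strc and 225.5 for Pld1, and neither region shared a word with any of the other genes.

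The first 60 bases of the repeat at Nipal3 (mm9, chr4:135011719-135011778, + strand), Pld1 (chr3:27961969-27962028, - strand) and Strc (chr2:121213070-121213129, - strand) are shown in the same orientation, with CG dinucleotides in capitals, because 3 of the 5 regions carry this sequence. Each run holds 4 CpGs.
Nipal3 first repeat: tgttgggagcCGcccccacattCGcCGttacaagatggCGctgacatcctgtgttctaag
Pld1 first repeat: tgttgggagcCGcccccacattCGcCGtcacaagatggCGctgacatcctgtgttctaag
Strc region: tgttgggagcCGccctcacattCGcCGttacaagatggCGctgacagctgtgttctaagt
In the window around the Strc-002 start (mm9, chr2:121212855-121213154, - strand) the same run lies upstream of the start. That window held 12 CpGs, against 5 at the RefSeq start of Strc.
Strc-002: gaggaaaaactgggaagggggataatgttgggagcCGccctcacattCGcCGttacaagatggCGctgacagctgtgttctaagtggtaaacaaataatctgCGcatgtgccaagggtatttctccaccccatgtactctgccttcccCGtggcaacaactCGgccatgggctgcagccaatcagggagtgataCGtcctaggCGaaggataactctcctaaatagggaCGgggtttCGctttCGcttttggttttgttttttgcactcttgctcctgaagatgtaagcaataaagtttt

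Copies of these sequences elsewhere in mm9 were nearly always marked as well. A copy was a place with at least 50% of the words of the region. Of 491 places like the Nipal3 region 476 overlapped a region found in both replicates, or 96.9%. Of 619 like the Pld1 region 589 did, or 95.2%, and of 31 like the Strc region 29 did, or 93.5%. As a baseline, mm9 was cut into tiles as wide as the median copy. A region found in both replicates overlapped 18.5% of tiles of 8000 bp, the width for Nipal3, 17.2% of tiles of 7000 bp, that for Pld1, and 8.68% of tiles of 1000 bp, that for Strc. No copy was found for Efnb1 or Polrmt.

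By listed fold enrichment, Nipal3 and Pld1 were not the highest among their copies. The marked copies of the Nipal3 sequence had a median fold enrichment of 7.99 in replicate 1 and 11.3 in replicate 2, and 77 and 75 of them exceeded Nipal3 itself in replicates 1 and 2. Those of the Pld1 sequence had medians of 7.87 in replicate 1 and 11.1 in replicate 2, with 204 and 162 above Pld1. The marked copies of the Strc sequence had medians of 6.66 in replicate 1 and 8.92 in replicate 2, and 0 of 29 exceeded Strc. The copies share sequence and may share reads, so they are not independent of each other. Fold enrichment is also the value that chose Strc, Nipal3 and Pld1. Their places among the copies are therefore partly set by that choice and are only described.

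The mm10 lists gave a second view of the same libraries, with narrow peaks and RefSeq gene bodies. A peak of the replicated list lay on the body of 3 of the 5 genes, Efnb1, Polrmt and Pld1, where 30.8% of 21887 RefSeq protein-coding bodies had one. The same 3 genes had a peak in the list of replicate 1 (34.1% of all bodies), replicate 2 (35.9%) and the pooled list (38.0%). With flanks of 20 kb all 5 had a peak, and so had 65.9% of all genes. No coordinates were converted between the builds, so regions and peaks are compared by gene and by distance from starts.

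**Figure D4:**
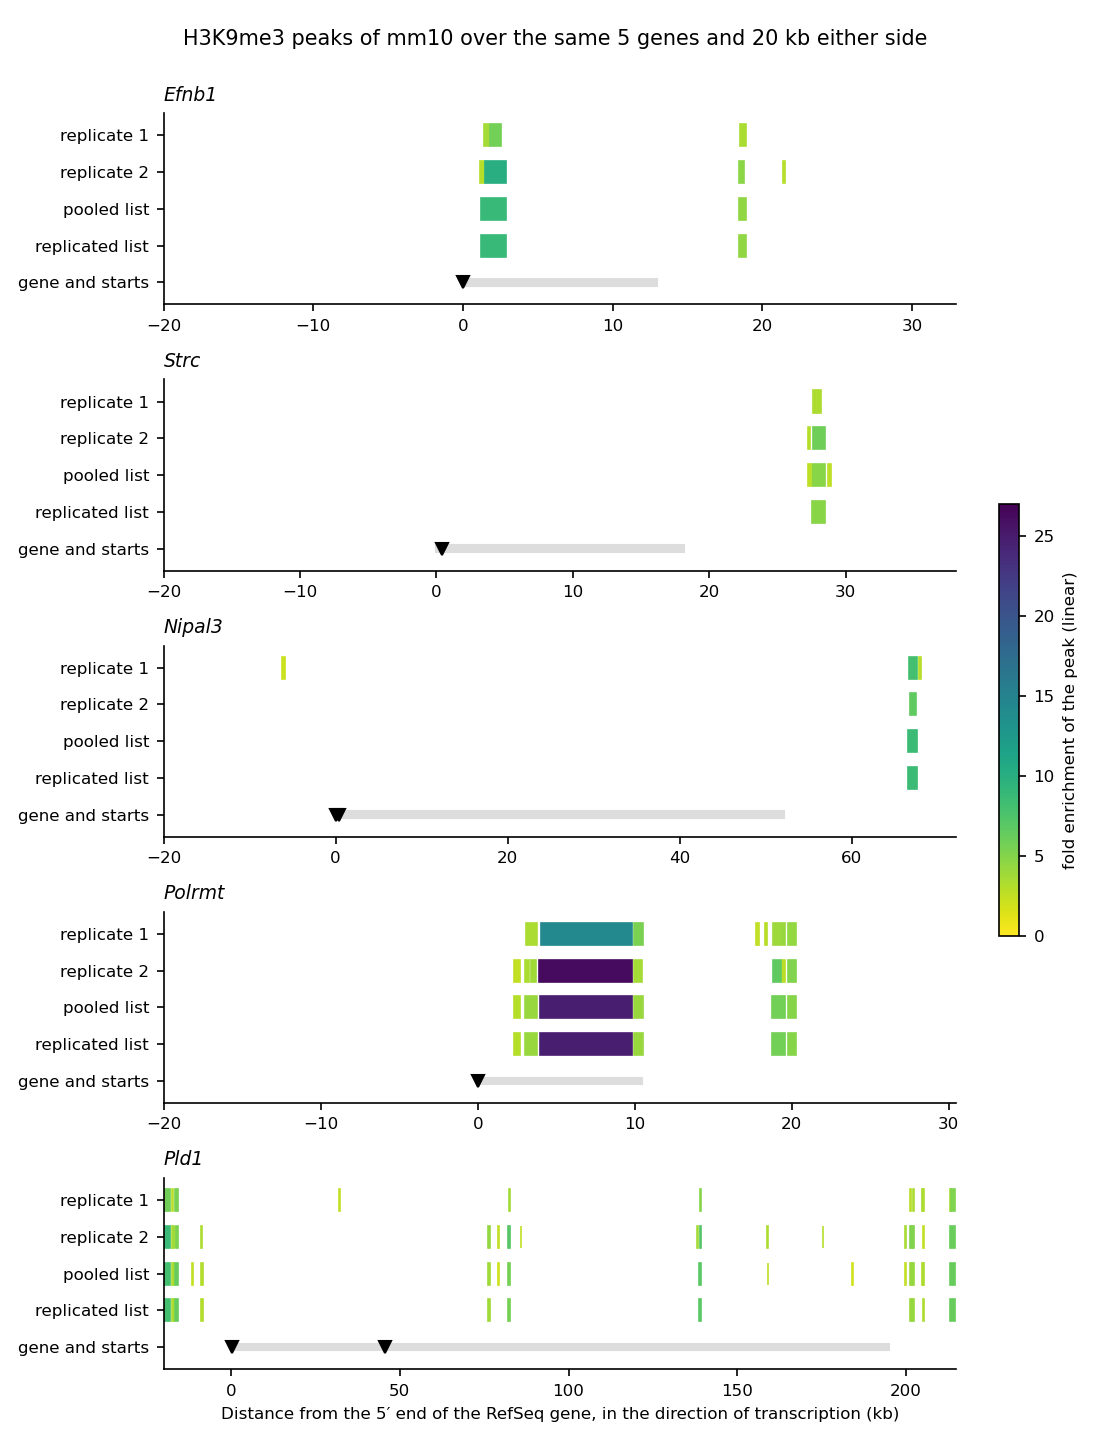
Peaks of the 4 mm10 lists over each RefSeq gene body (grey bar) with 20 kb on either side, coloured by fold enrichment on a linear scale; triangles are RefSeq starts and the x axis is the distance in kb from the 5′ end in the direction of transcription. Polrmt holds 1 strong block of 24.8-fold in the replicated list, Efnb1 a peak close to its start, and the bodies of Strc and Nipal3 hold no peak.

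Polrmt had the highest body coverage of the 5 in mm10, as in mm9. Peaks covered 67.0% of its body in replicate 1, 70.6% in replicate 2 and 71.9% in the replicated list. The strongest peak had a fold enrichment of 14.3 in replicate 1 and 26.2 in replicate 2, and the replicated list gave 24.8 over 5880 bp at chr10:79736785-79742664. That peak ranked 61 of the 123489 replicated peaks by fold enrichment, and the median of the list was 4.20. The nearest peak to the RefSeq start of Polrmt was 3057 bp away in replicate 1 and 2309 bp away in replicate 2 and the other 2 lists.

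Among all regions of its mm9 list, 0.0395% were stronger than that of Efnb1 in replicate 1 and 0.0281% in replicate 2. Among all mm10 peaks, 10.5% were stronger than its strongest peak in replicate 1 and 5.02% in replicate 2. Its strongest peak had a fold enrichment of 5.72 in replicate 1, 10.1 in replicate 2 and 8.85 in the replicated list, where 8.54% of peaks were stronger. The replicated peak, chrX:99137291-99138910, was 1620 bp wide and lay 1230 bp from the RefSeq start, with the nearest peak 1422 bp away in replicate 1 and 1164 bp away in replicate 2. Peaks covered 8.40% of the body in replicate 1, 12.5% in replicate 2 and 12.5% in the replicated list. In replicate 1 the body held peaks of 319 and 770 bp, against a region of 1400 bp in mm9. In replicate 2 it held a weak peak of 241 bp, with a fold enrichment of 3.01, and the strongest peak of 1383 bp. The mm9 region of replicate 2 was 1600 bp wide and the replicated mm10 peak 1620 bp. Each mm10 list also held a weaker peak in the flank beyond the 3′ end of Efnb1, with a fold enrichment of 4.50 in the replicated list.

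Strc and Nipal3 had no peak on the body in any of the 4 lists. In Strc the peaks within 20 kb all lay beyond the 3′ end, and the nearest to the RefSeq start was between 26799 and 27211 bp away over the 4 lists. In Nipal3 the strongest peak near the gene was also beyond the 3′ end, with a fold enrichment of 8.55 in the replicated list. A weak peak upstream of Nipal3, 5877 bp from its 5′-most start and with a fold enrichment of 2.18, was listed in replicate 1 and not in the other lists.

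Pld1 had small peaks scattered over its body, and no block comparable to the mm9 region. There were 3 in replicate 1, 8 in replicate 2, 6 in the pooled list and 3 in the replicated list. The widest had 347 bp in replicate 1 and 648 bp in replicate 2, and together they covered 0.408% of the body in replicate 1, 1.36% in replicate 2 and 0.912% in the replicated list. The strongest had a fold enrichment of 4.94 in replicate 1, 7.20 in replicate 2 and 6.90 in the replicated list. The 20 kb flanks were covered more densely than the body, at 12.4% in replicate 1 and 16.0% in replicate 2.

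**Figure D5:**
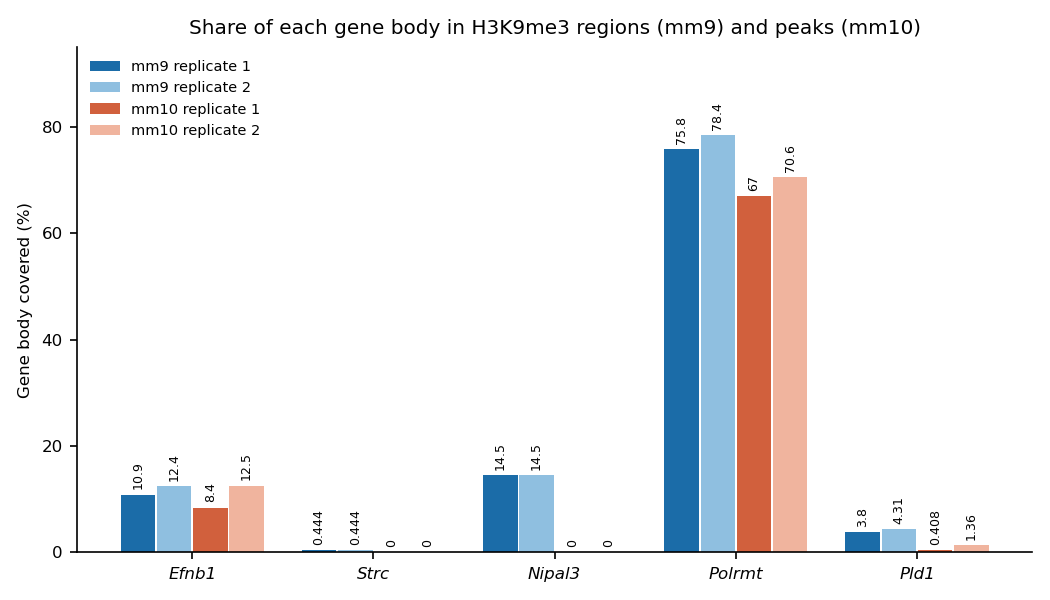
Percent of each gene body covered by mm9 regions (blue, GENCODE M1 bodies) and mm10 peaks (orange, RefSeq bodies), with replicate 1 dark and replicate 2 pale, and each value written over its bar. Efnb1 and Polrmt are covered in both builds, while Nipal3 has 14.5% in mm9 and 0% in mm10.

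The genes with unique sequence under the mm9 region, Efnb1 and Polrmt, were those with an mm10 block at a similar distance from the 5′ end. The genes with repeated sequence there, Strc, Nipal3 and Pld1, had none. As the plot of body coverage shows, coverage of Nipal3 was 14.5% in each mm9 replicate and 0% in each mm10 replicate. The builds differ in the width of their peaks, the gene models and possibly the treatment of reads with several matches, and the part of each in this difference was not tested.

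At the RefSeq starts themselves the 5 genes were free of peaks. In the 4 mm10 lists 0 of the 5 had a peak within 1 kb of a RefSeq start, where 5.89% of 17492 protein-coding genes had one in the replicated list. The share over all genes was 6.53% in replicate 1, 8.27% in replicate 2 and 8.94% in the pooled list. With shares this low, a count of 0 of 5 does not set these genes apart from other genes. By the start nearest to a peak of the replicated list, the order was Efnb1 at 1230 bp, Polrmt at 2309 bp, Pld1 at 8429 bp, Strc at 27127 bp and Nipal3 at 34922 bp.

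Relatives of the 5 genes mostly had unmarked promoters, as had most genes, since 5.54% of protein-coding genes were marked. Among the ephrins and EphB receptors, the list that holds Efnb1, 0 of the 12 others found in mm9 had a marked promoter. A replicated mm10 peak lay on the body of 5 of 12, a share to be read against 30.8% of all RefSeq protein-coding bodies. These were Efna3, Efna5, Ephb1, Ephb2 and Ephb4. Among relatives of Strc and proteins of the inner ear matrix, 0 of 8 were marked at the promoter, and 5 of 8 had a body peak, Otoa, Otog, Otogl, Tecta and Ceacam16. In the NIPA family 0 of 5 others were marked and 1 of 5, Nipal2, had a body peak.

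The genes of mitochondrial transcription and DNA replication, which work with Polrmt, had 1 marked promoter among 11 others. This was Mterf, a mitochondrial termination factor, with a fold enrichment of 4.72 in replicate 1 and 6.34 in replicate 2, and a mean of 5.53 ± 1.14 (SD, n = 2). In mm10 1 of 14 others, Mterf1a, had a body peak. The annotations of the builds use different symbols for part of this family. Mterf of mm9 and Mterf1a of mm10 are therefore not to be counted as different genes. In the phospholipase D family 0 of 5 others were marked at the promoter, and 1 of 5, Pld5, had a body peak. The shares to set beside these counts are 5.54% of all protein-coding genes for promoters and 30.8% of RefSeq protein-coding bodies for body peaks. No test was made of the family counts.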

How the data were processed

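The deposited files were lists of H3K9me3 regions and peaks, per the labels from 2 biological replicates of E14TG2a.4. The fold enrichment of each peak is a linear ratio, taken as the authors deposited it. Each of its denominator, aligner, peak caller and tool versions was not given in the sources used here. The mm10 lists also hold −log10 p and −log10 q, and the mm9 lists a linear p-value and q-value, all deposited by the authors. All mm9 boundaries are multiples of 200 bp. Per the deposited README lists, both alignments went into the pooled mm10 list, and that list with the per-sample ones into the replicated list. What the third mm9 list was made from is not stated. Fold enrichments were called separately in each list and were used only to describe and rank, so each mean ± SD (n = 2) describes these values.

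Regions were joined to GENCODE M1 (Ensembl 65) transcripts on mm9, with bases covered in both replicates and a window of 1 kb, and to RefSeq gene bodies of GRCm38.p6 on mm10, with an overlap of at least 1 bp. Regions of mm9 stayed within the chromosome lengths of the NCBIM37 reference on all 21 chromosomes. Words of 32 bases were counted on both strands of mm9. A copy was a run of 1000 bp bins with at least 50% of a region's words. Direct repeats were found from exact 20-base seeds within 1500 bp of a region, and repeats were aligned locally with Biopython 1.88. RefSeq start windows of 300 bases came from RefSeq (GRCm38.p6). Python 3.11.15, numpy 2.4.6, samtools 1.23.1 and matplotlib 3.10.9 were used, and the overlap and word counts were checked on simulated data.

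The members, family lists and marker lists were chosen with earlier results of these data known, and the promoter strength that chose the members gets no test. Besides the 5 members, the text names genes next to them in the order of promoter strength, those at ranks 10 and 11, the gene with the nearest pair of values, genes within the 20 kb flanks and marked genes of each family list. Alternatives were other windows, lists, thresholds on fold enrichment and −log10 q, overlap rules, flanks and each replicate alone.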

Additional observations from a re-analysis of the deposited data

How the results depend on the processing

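The count of 5 genes with a marked start stayed at 5 with windows of 2.5 and 5 kb, with the third mm9 list, with a fold enrichment of at least 4 and without either replicate (5 in each case). It was 4 with the start base inside a region, where Nipal3 dropped out, 3 (Efnb1, Polrmt and Pld1) where at least 50% of the window had to be covered, 1 (Polrmt) with protein-coding transcripts only, and 0 with the mm10 replicated list at RefSeq starts, an alternative chosen after seeing the data. The count of 1239 marked protein-coding genes became 2030 at 2.5 kb, 3365 at 5 kb, 734 with the start inside, 1895 with the third list, 406 at a fold enrichment of at least 4 and 731 with 50% of the window covered. It was between 1415 and 1751 with 1 replicate left out, 1045 with protein-coding transcripts only and 1031 with the mm10 replicated list. The 3 genes with an mm10 body peak became 5 with 20 kb flanks and stayed at 3 under the other alternatives, each replicate alone included. Windows, thresholds, overlap rules, transcript types and flanks change these counts by construction. For the third mm9 list and the mm10 list the cause was not tested. For the promoter fold enrichments, wider windows returned the same regions, and leaving out 1 of 2 replicates cannot move a mean by 1 SD, so these alternatives say nothing on stability. The third list lay within 1 SD of the mean at all 5 genes. Coverage with flanks moved by more than 1 SD in 18 of 25, and mm10 body coverage in 4 of 30, with 0 reversals.

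With 2 replicates the SDs are rough. Depth is unknown, so the absence of a peak does not show the absence of the mark. The high-copy sequence at Strc, Nipal3 and Pld1 limits what can be said of these single places.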
